A study of Mus musculus with 56 samples.

Results

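Tissue macrophages of muscle were followed through 10 genes in the gastrocnemius, the large calf muscle, of mice that breathed cigarette smoke or air. The genes are Cd68, Csf1r, Mrc1, Cd163, Lyz2, C1qa, C1qb, Gpr34, Cd14 and Ccl2. They were taken by name, from a list drawn up with earlier results of these data known, and make up 10 of the 18193 genes that the arrays measure with a probe set of a single gene symbol. Female C57BL/6 mice were used, and the sources used here give no age for them. Smoke groups breathed 4% mainstream smoke through the nose for 2 hours a day on 5 days a week, over 2, 12 or 24 weeks, and sham air groups breathed air on the same schedule. Cessation mice had smoke for 12 weeks and the sham exposure for the next 12, in an arm labelled FA and an arm labelled RA, abbreviations that the labels do not define. Untreated mice were taken at week 0. Each group had 6 mice, except 12 weeks of smoke with 7, so that 55 mice in 9 groups gave 56 arrays. The 2 arrays of mouse G8 (12 weeks of smoke) were averaged. Every level below is the log2 of the deposited intensity plus 16, and every difference is on that scale, which understates changes of dim genes.

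Skeletal muscle holds a standing population of macrophages between its fibres and around its vessels, some seeded before birth and some renewed from blood monocytes. They clear dead cells and debris, and after injury they are joined by monocytes drawn in by chemokines. CSF1 and IL-34, acting on the receptor that Csf1r encodes, keep these cells alive, while the transcription factor PU.1 (gene Spi1) switches on most macrophage genes. None of the 10 genes is expressed by resident macrophages alone: Lyz2, Cd14 and Cd68 also mark monocytes and inflammatory macrophages, and Ccl2 is made by many cell types.

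Promoter sequence was taken for the 3 genes whose levels were most alike across mice (Mrc1, Lyz2 and C1qb). Each line gives the 250 bases before the gene's start, 5′ to 3′ on the gene's strand, from RefSeq on GRCm38.p6. Mrc1 is at chr2:14229164-14229413, plus strand, Lyz2 at chr10:117282273-117282522, minus strand and C1qb at chr4:136886201-136886450, minus strand. Capitals mark the letters GAGGAA (or TTCCTC on the other strand), the core bound by PU.1.
Mrc1: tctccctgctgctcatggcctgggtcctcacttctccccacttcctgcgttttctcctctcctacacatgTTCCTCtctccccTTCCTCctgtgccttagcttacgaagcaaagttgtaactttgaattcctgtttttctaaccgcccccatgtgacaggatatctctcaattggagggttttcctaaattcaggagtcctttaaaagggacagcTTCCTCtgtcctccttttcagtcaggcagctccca
Lyz2: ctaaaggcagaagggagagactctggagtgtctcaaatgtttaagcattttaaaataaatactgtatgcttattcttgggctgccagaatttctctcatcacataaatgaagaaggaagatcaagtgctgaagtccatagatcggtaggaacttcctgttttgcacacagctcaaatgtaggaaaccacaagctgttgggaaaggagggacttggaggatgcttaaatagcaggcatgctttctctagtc
C1qb: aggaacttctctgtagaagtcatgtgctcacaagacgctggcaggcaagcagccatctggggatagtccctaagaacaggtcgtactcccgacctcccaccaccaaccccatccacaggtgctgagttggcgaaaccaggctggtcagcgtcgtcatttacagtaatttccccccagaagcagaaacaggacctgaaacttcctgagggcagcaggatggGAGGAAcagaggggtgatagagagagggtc
The PU.1 letters occurred 3 times before Mrc1 and once before C1qb. The Lyz2 window did not hold them. Of 32851 promoter windows of this length in the RefSeq table, 23.3% held the PU.1 letters on either strand, so a match is common, and it is a description and not a shown binding site. In the same window Cd68 held the PU.1 letters once and Cd163 did not hold them. Csf1r, C1qa, Gpr34, Cd14 and Ccl2 are named only.

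Before the results, 12 arrays must be set apart. Glycam1, a gene of lymph node vessels, reached an intensity of 6944 to 10546 in these, while the other 44 stayed at 307 or below. They came from 3 of 6 mice in cessation RA, 1 of 6 in cessation FA, 3 of 6 after 24 weeks of smoke, 1 of 6 after 24 weeks of air, 2 of 7 after 12 weeks of smoke, 1 of 6 after 2 weeks of air and 1 of 6 untreated mice. The mean level of 12 lymphocyte markers was 8.15 to 11.05 in the 12 arrays and 4.78 to 6.37 in the rest. Muscle fibre genes did not separate them. The mean level over 11 of these, such as Ckm, Acta1 and Myh4, was 13.32 to 13.48 in the 12 arrays. It was 13.36 to 13.53 in the others, so each array carried markers of muscle fibres.

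The macrophage genes stood high in arrays with lymph node genes, 9 of the 10 with a higher median there than in the other arrays. Csf1r lay between 10.53 and 12.09 there, against 8.61 to 11.21 in the other arrays. Gpr34 lay between 6.50 and 7.79, against 4.95 to 6.93. Lyz2 lay between 11.36 and 13.28, against 10.06 to 12.37. Cd163, the scavenger receptor for haptoglobin-bound haemoglobin, was the member whose ranges coincided most, with 7.75 to 9.39 (median 8.63) in the 12 arrays and 7.75 to 9.81 (median 8.76) in the others. Mouse G8 shows the same within 1 animal, since 1 of its arrays had high Glycam1 and the other did not. All 10 genes were higher in the array with high Glycam1, with a difference of 2.63 for C1qb, 2.53 for Csf1r and 2.41 for Cd14 at the upper end and 1.17 for both Ccl2 and Cd163 at the lower. In bulk tissue fewer cells and less RNA per cell cannot be told apart, and RNA of lymph node macrophages cannot be told apart from that of muscle macrophages in these arrays. Results are therefore given for all 55 mice and for the 44 mice with an array free of high Glycam1, G8 keeping its other array.

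**Figure D1:**
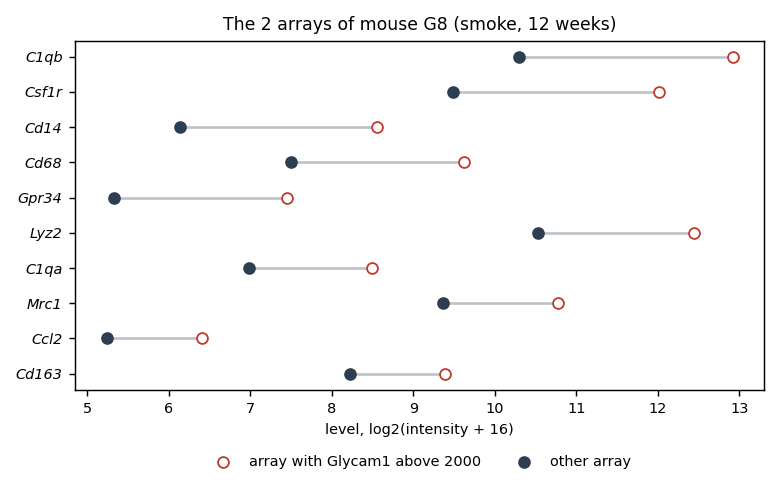
Levels of the 10 genes, as log2 of intensity plus 16 on the horizontal axis, in the 2 arrays of mouse G8 after 12 weeks of smoke. Open circles stand for the array with Glycam1 above 2000 and filled circles for the other; every open circle lies to the right of its filled partner, by 1.17 to 2.63.

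**Figure D2:**
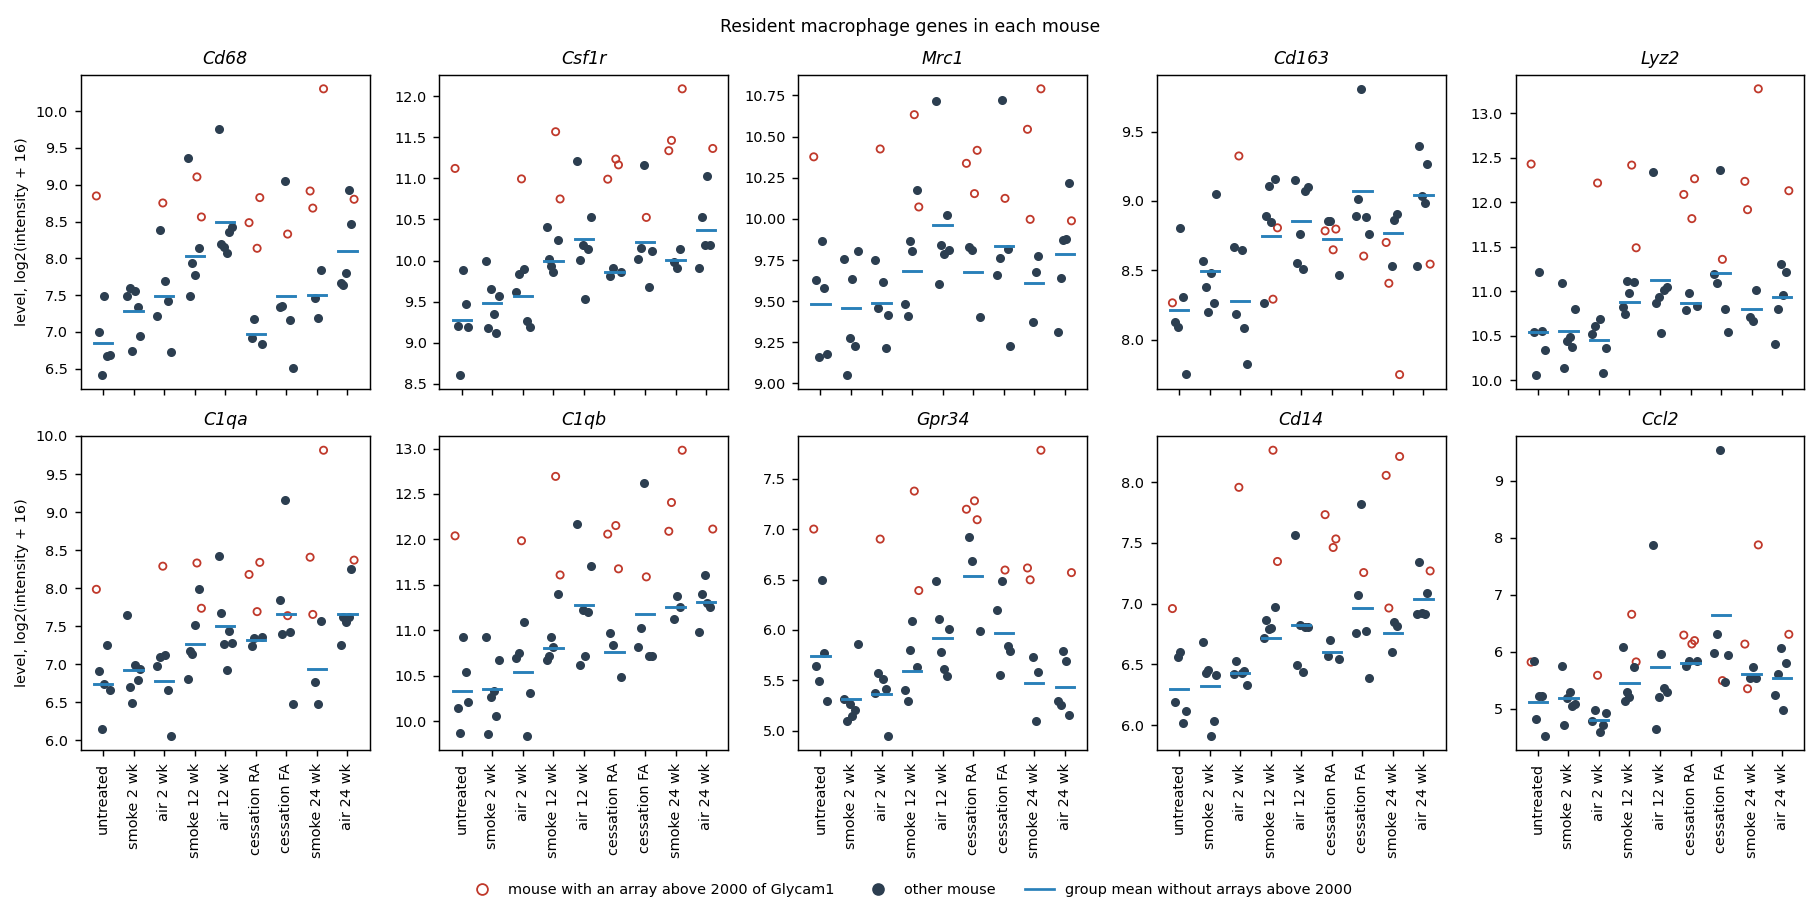
Level of each gene in each mouse by group, as log2 of intensity plus 16. Open red circles are mice with an array above 2000 of Glycam1, filled circles the other mice and bars the group means without such arrays; the median of the arrays of high Glycam1 lies above that of the others for 9 genes and below it for Cd163, and the highest Gpr34 mean is that of cessation RA, at 6.53.

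Among the 44 mice, group membership held 24.4% of the variance of Mrc1 at the low end and 53.5% of that of Gpr34 at the high end. These shares are not adjusted for the number of groups. With 9 groups, part of the variance is taken up even where no group differs. For 8 of the 10 genes the 3 lowest group means were those of the untreated mice and the 2-week groups; Cd68 and Gpr34 were the exceptions. Of the 80 pairs of groups next to each other in these orders, 78 differed by less than the pooled SD between mice. The 2 wider gaps were those between cessation RA and cessation FA for Gpr34 (0.56, pooled SD 0.34) and between cessation FA and cessation RA for Ccl2 (0.83, pooled SD 0.76).

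Csf1r, the receptor that macrophages depend on, had its highest mean after 24 weeks of air (10.37 ± 0.43, SD, n = 5) and its lowest in untreated mice (9.27 ± 0.46, n = 5). The order between them ran from 12 weeks of air (10.27) through cessation FA (10.22), 24 weeks of smoke (10.01), 12 weeks of smoke (9.99), cessation RA (9.86) and 2 weeks of air (9.56) to 2 weeks of smoke (9.48). Its 2 dimmer probe sets followed the brightest one across the 44 arrays, with r of 0.98 and 0.81.

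The scavenger receptors differed in their order. Cd163 was highest in cessation FA (9.07 ± 0.42, n = 5) and 24 weeks of air (9.04 ± 0.33, n = 5) and lowest in untreated mice (8.22 ± 0.39, n = 5). Its first place in cessation FA rests on replicate 3, at 9.81, without which the FA mean was 8.89 ± 0.10 (n = 4), below that of 24 weeks of air. Mrc1, the mannose receptor CD206, moved least, with 9.96 ± 0.39 after 12 weeks of air (n = 6) at the top and 9.46 ± 0.31 after 2 weeks of smoke (n = 6) at the bottom. Cd68, a lysosomal glycoprotein of phagocytes, was highest after 12 weeks of air (8.49 ± 0.63, n = 6), and its lowest means were those of cessation RA (6.97 ± 0.18, n = 3) and untreated mice (6.85 ± 0.41, n = 5).

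C1qa and C1qb encode chains of C1q, which starts the classical complement pathway and tags debris for uptake. C1qa was highest in cessation FA (7.66 ± 0.98, n = 5), where 1 mouse was at 9.16 and the other 4 had a mean of 7.29, and in 24 weeks of air (7.66 ± 0.36, n = 5). C1qb had its highest mean after 24 weeks of air (11.31 ± 0.23, n = 5), and both chains were lowest in untreated mice, at 6.74 ± 0.40 for C1qa and 10.34 ± 0.41 for C1qb (n = 5). The C1qb probe set carries a suffix for sequence shared with other transcripts; the C1qb probe set without that suffix followed it with r of 0.95. Lyz2, lysozyme of myeloid cells, ranged from 11.20 ± 0.70 in cessation FA (n = 5) down to 10.45 ± 0.24 after 2 weeks of air (n = 5). Without replicate 3 of cessation FA (12.37) and replicate 1 of 12 weeks of air (12.34), 24 weeks of air came first at 10.94 and cessation FA second at 10.91. Cd14, a co-receptor for bacterial lipopolysaccharide, was highest after 24 weeks of air (7.04 ± 0.18, n = 5) and lowest in untreated mice (6.30 ± 0.27, n = 5).

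Ccl2, the chemokine that recruits monocytes, was the dimmest of the members' probe sets, with a mean level of 5.67 under the filter of 5.71, so it was described and left out of the tests. Its group means ran from 6.65 ± 1.64 in cessation FA (n = 5) to 4.8 ± 0.16 after 2 weeks of air (n = 5), and replicate 3 of cessation FA, at 9.53, lay far above the other 4 mice of its group, at 5.48 to 6.31. In a fit with no filter on dim genes its lowest adjusted p over the 14 comparisons of the 44 mice was 0.21 (cessation FA against 12 weeks of smoke, 1.20 ± 0.44, SE). The other 9 genes were tested with limma in 1 model of all groups over 12351 genes, with a call wherever the p adjusted by Benjamini and Hochberg over these genes was under 0.05.

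None of the 9 tested genes passed with smoke. Against sham air of the same length, 0 of 9 passed at 2, 12 or 24 weeks, with all mice and with the 44. Of all genes tested, 0%, 0.0081% and 0.47% passed at 2, 12 and 24 weeks with all mice and 0%, 0.0081% and 0.364% with the 44, so few genes of any kind passed. An unadjusted p under 0.05 was found for 1 of 9 members with all mice, Cd163 at 24 weeks, and for none with the 44. Of all genes 2.06%, 1.86% and 24.6% had such a p at 2, 12 and 24 weeks with all mice, and 5.01%, 7.53% and 20.5% with the 44. Averaged over the 3 lengths of exposure, 0 of 9 passed as well (0.0324% of all genes with all mice and 0.154% with the 44), and 0 of 9 passed for the difference between the 24-week and the 2-week response (0.0324% and 0.146%).

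The direction of the smoke differences turned with the lymph node arrays. At 24 weeks 8 of 9 genes were above 0 with all mice (median 0.21, all genes -0.03), but without the arrays of high Glycam1 8 of 9 were below 0 (median -0.27, all genes -0.01), on 3 smoke mice and 5 air mice. C1qa shows the turn: its levels were 8.41, 7.65, 6.77, 6.47, 7.56 and 9.81 after 24 weeks of smoke, with 8.41, 7.65 and 9.81 from mice with high Glycam1. After 24 weeks of air they were 7.25, 7.62, 7.55, 7.62, 8.25 and, in the mouse with high Glycam1, 8.37. The 3 other smoke mice reached 7.56 at most, below 3 of the 5 other air mice. The difference was 0.00 (95% interval -0.78 to 0.78) with all mice and -0.72 (-1.47 to 0.02, adjusted p = 0.26) with the 44. Cd68 differed by 0.18 with all mice (-0.71 to 1.08) and by -0.60 with the 44 (-1.45 to 0.25, adjusted p = 0.42). Cd163 was the only one of the 9 with a value below 0 in both, -0.43 (-0.85 to -0.01, adjusted p = 0.19) with all mice and -0.27 (-0.77 to 0.22, adjusted p = 0.54) with the 44.

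At 12 weeks all 9 genes were below 0 in the 44 mice, between -0.47 for C1qb and -0.11 for Cd163 and Cd14, with a median of -0.27 (all genes -0.02), and 5 of 9 were above 0 with all mice. C1qb averaged 10.80 ± 0.36 in the smoke mice, against 11.27 ± 0.59 in the air mice (SD, n = 6 each), with an adjusted p of 0.72. Replicate 1 of the air group, the mouse with the highest Cd68 of the 44, weighed on these values: without it and replicate 3 of cessation FA, 7 of 9 were below 0 and the median was -0.08. Both mice were chosen after their values were seen. At 2 weeks the median was -0.30 with all mice and -0.05 with the 44, and the widest interval among the 44 was that of Cd68, from -0.92 to 0.50. The 24-week intervals of Cd68 and C1qa in the 44 mice reached down to -1.45 and -1.47, so that a missing call does not show equal levels.

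**Figure D3:**
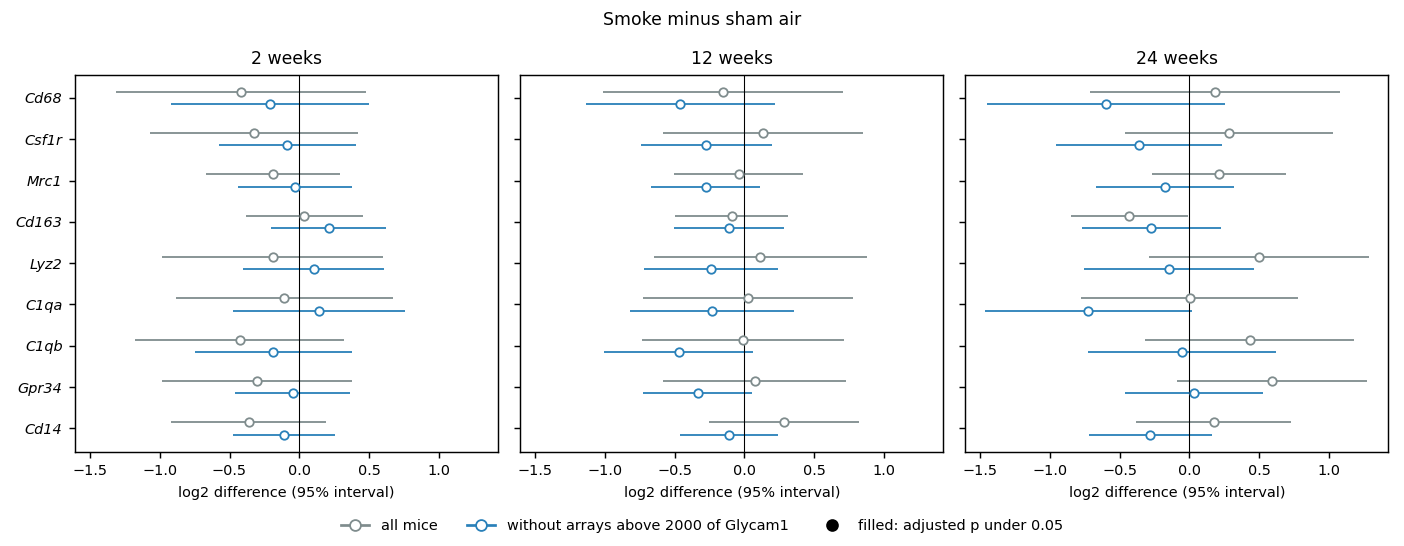
Smoke minus sham air for the 9 tested genes at 2, 12 and 24 weeks, as log2 differences with 95% intervals. Grey points are from all 55 mice and blue points from the 44 without arrays of high Glycam1; none is filled, since none passed, and at 24 weeks the grey median of 0.21 stands beside a blue median of -0.27.

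Genes that work beside the members were counted in the same comparisons. Without the arrays of high Glycam1, none of 20 other macrophage genes, 18 phagocyte genes, 10 genes of CSF1 signalling, 10 of monocyte chemokines or 9 of lipopolysaccharide recognition passed at 12 or 24 weeks of smoke. Of 11 complement genes, 1 passed at 24 weeks: Cd55, decay-accelerating factor, which shields cells from complement, rose by 0.47 ± 0.10 (SE, adjusted p = 0.037). At 24 weeks the direction of several of these lists turned with the lymph node arrays too, but that of lipopolysaccharide recognition did not. Of its 9 genes 7 were above 0 at 24 weeks with all mice (median 0.07) and 5 with the 44 (median 0.02). At 12 weeks the same list did turn, with 6 of 9 above 0 with all mice (median 0.05) and 2 with the 44 (median -0.07). At 24 weeks all 10 CSF1 signalling genes were below 0 in the 44 mice, with a median of -0.24, and 8 of 10 were above 0 with all mice, with a median of 0.28. Of 18 phagocyte genes 3 were above 0 in the 44 mice (median -0.19) and 16 with all mice (median 0.63). Of 20 other macrophage genes 9 were above 0 in the 44 mice (median -0.06) and 11 with all mice (median 0.05), so these showed little direction in either set.

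Among the cessation comparisons only Gpr34 passed, with all mice and with the 44. It encodes a receptor for lysophosphatidylserine carried by macrophages, microglia and some lymphoid cells. Its levels in cessation RA were 7.20, 6.93, 6.69, 7.28, 7.10 and 5.99, of which 7.20, 7.28 and 7.10 came from mice with high Glycam1. After 24 weeks of air they were 5.30, 5.26, 5.79, 5.69, 5.15 and, in the mouse with high Glycam1, 6.57. Of the 6 RA mice, 5 lay above every air mouse, and the other one lay above all but the air mouse with high Glycam1. Gpr34 rose by 1.24 (95% interval 0.56 to 1.92, adjusted p = 0.042) with all mice and by 1.10 (0.60 to 1.59, adjusted p = 0.0066) with the 44, where all 3 RA mice lay above all 5 air mice. That is 1 of 9 members, while 1.76% of all genes passed with all mice and 3.97% with the 44. Its probe set is dim, at the 44.3rd percentile of all probe sets. It passed the filter of 5.71 on its mean over all 56 arrays, 5.96. Over the 44 mice its median was 5.60, under that filter. The arrays of high Glycam1 thus helped it into the tests, also into the fit that leaves them out. In limma over every probe set, with no filter, its adjusted p was 0.012 in the 44 and 0.066 with all mice. The call with all mice was thus lost without the filter.

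The rise of Gpr34 did not hold under each way of leaving out a mouse. With all mice it passed in 3 of 12 fits without 1 mouse of either group, with differences of 1.14 to 1.43 and adjusted p of 0.019 to 0.11. It was lost without replicates 1, 2, 4 or 5 of 24 weeks of air and without replicates 1 to 5 of cessation RA. With the 44 it passed in 6 of 8 such fits and was lost without RA replicate 2 (0.90, adjusted p = 0.10) or RA replicate 3 (1.02, adjusted p = 0.055).

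Against 24 weeks of smoke, Gpr34 in cessation RA differed by 0.64 with all mice (adjusted p = 0.34) and rose by 1.06 with the 44 (0.51 to 1.61, adjusted p = 0.024), where its levels were 6.93, 6.69 and 5.99 and the 3 smoke mice were at 5.74, 5.10 and 5.58. On these 3 against 3 mice it passed in 2 of 6 fits that left out 1 more mouse, without smoke replicate 3 (adjusted p = 0.02) or RA replicate 6 (adjusted p = 0.012). Of all genes, 2.34% passed with all mice and 3.28% with the 44. Groups of 3 against 3 did not overlap for 3 of 9 members, Gpr34, Cd68 and C1qb, and for 26.2% of all genes. In cessation FA, Gpr34 differed from 24 weeks of air by 0.45 (adjusted p = 0.86) with all mice and by 0.54 (0.11 to 0.96, adjusted p = 0.32) with the 44, with 4 of 5 FA mice above every air mouse. The arms themselves differed by 0.79 (0.11 to 1.47, adjusted p = 0.96) with all mice and 0.56 (0.07 to 1.06, adjusted p = 0.60) with the 44, RA over FA. So Gpr34 was not shown to differ between the arms.

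The other members did not pass. With all mice 4 of the 9 were above 0, with a median of -0.04 (all genes -0.01). In the 44 mice Gpr34 was the only one of the 9 above 0 in cessation RA against 24 weeks of air, and the median of the 9 was -0.35 (all genes -0.03). Cd68 was 6.91, 7.17 and 6.84 in the 3 RA mice, against 7.67, 7.64, 7.79, 8.93 and 8.46 in the 5 air mice, so that the groups did not overlap. Of the 9 members 5 had groups that did not overlap, and so did 12.2% of all genes. The Cd68 difference of -1.13 (-1.98 to -0.27, unadjusted p = 0.011) had an adjusted p of 0.11 and did not pass. It was -0.49 (adjusted p = 0.65) with all mice. It passed with the lymphocyte mean as a covariate (-1.01, adjusted p = 0.032) and in the fit of 42 mice without both mice of high member levels (-1.13, adjusted p = 0.047), where 4.12% of all genes passed. Those mice, in neither compared group, were chosen for high levels of these same genes, Cd68 among them. Leaving them out kept the difference and made the spread smaller, so that pass is no further support. Cd14 (-0.43), Csf1r (-0.51) and C1qb (-0.54) were also lower in each of the 3 RA mice than in any of the 5 air mice and did not pass, with adjusted p of 0.25, 0.32 and 0.36.

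Of 20 other macrophage genes, 2 fell in cessation RA against 24 weeks of air in the 44 mice. They were Stab1, a scavenger receptor of resident macrophages and lymphatic vessels (-0.95 ± 0.22, SE, adjusted p = 0.0088), and Mertk, a receptor for the uptake of dying cells (-0.47 ± 0.12, adjusted p = 0.021). The median of the 20 was -0.20. With all mice none of the 20 passed. Among 10 CSF1 signalling genes Cebpb, a transcription factor of myeloid cells and fat cells, fell with all mice (-0.52 ± 0.14, adjusted p = 0.031), and none passed with the 44. None of 18 phagocyte, 10 chemokine, 9 lipopolysaccharide or 11 complement genes passed in either set.

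Markers of other cells were compared between these groups too, and the ranges of their sums overlapped. The summed intensity of 6 adipocyte genes was 9854 to 11764 in the 3 RA mice and 10673 to 32478 in the 5 air mice, with a median difference of -1.21 and 0 of 6 genes past the test. Summed over 12 lymphocyte genes it was 180 to 255 in RA and 205 to 252 in air. Over 11 neutrophil genes the sums were 413 to 455 in RA and 263 to 696 in air. The part of fat or of any of these cells in the Gpr34 and Cd68 differences was not tested.

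In cessation FA against 24 weeks of air, 0 of 9 genes passed, where 0.081% of all genes passed with all mice and 0.235% with the 44. Medians were -0.06 with all mice and 0.00 with the 44, where 5 of 9 were above 0. That 0.00 rests on replicate 3 of cessation FA: without it and replicate 1 of 12 weeks of air the median was -0.29 and 1 of 9 was above 0, with Cd68 at -1.01 (adjusted p = 0.14) and none past the test. Nor did any of the 9 pass in cessation FA against 24 weeks of smoke (3.55% and 1.89% of all genes), in cessation FA against 12 weeks of smoke (0.34% and 1.94%) or between the arms (0.0243% and 0.0324%). Cd163 in cessation FA was 0.47 above 24 weeks of smoke with all mice (0.05 to 0.89, adjusted p = 0.14) and 0.30 above it with the 44 (-0.19 to 0.80, adjusted p = 0.52). These comparisons share their smoke and air mice with those above and are not independent of them.

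**Figure D4:**
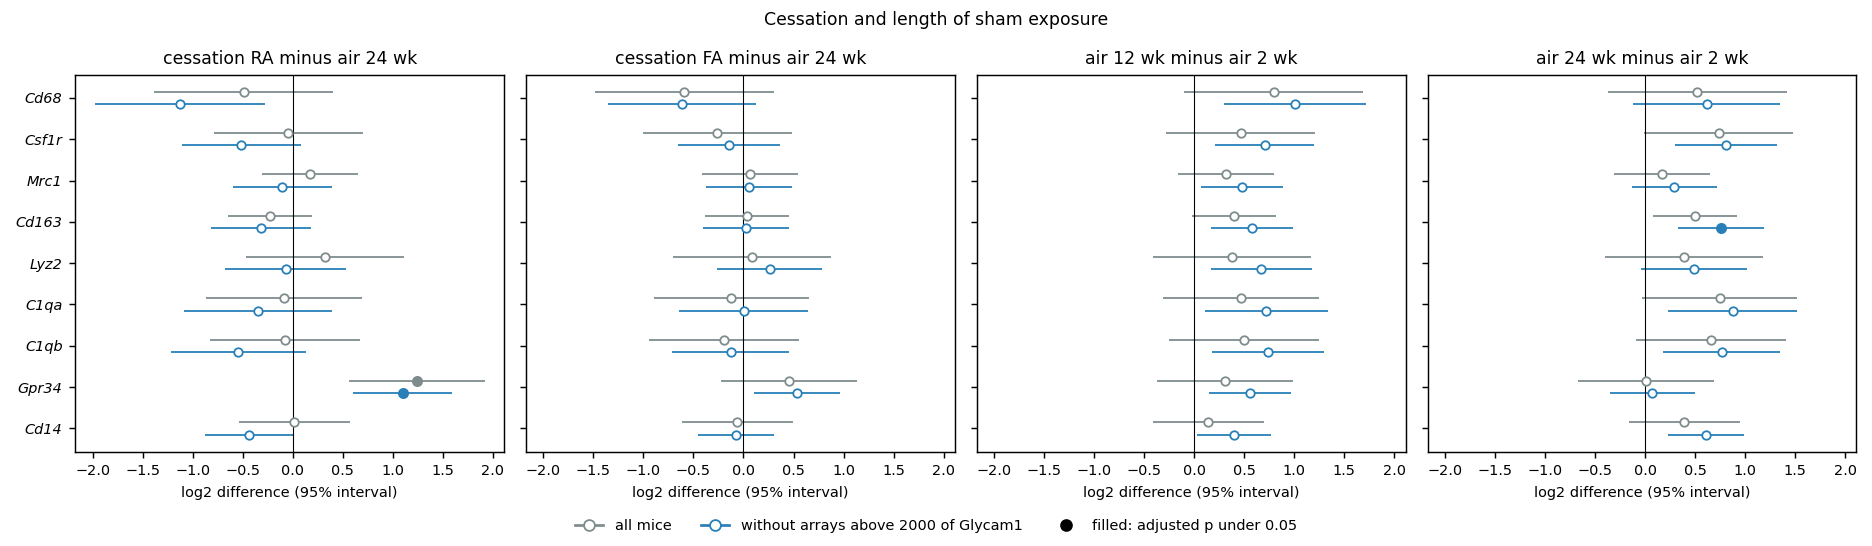
Log2 differences with 95% intervals for the 9 tested genes in cessation RA and cessation FA against 24 weeks of air, and after 12 and 24 weeks of air against 2 weeks of air. Grey stands for all 55 mice, blue for the 44, and filled points passed: Gpr34 in cessation RA at 1.24 and 1.10, and Cd163 after 24 weeks of air at 0.76 in blue.

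Sham air mice of different exposure lengths, which were taken at different weeks, had all tested members on the same side. After 24 weeks against 2 weeks of air, 9 of 9 were above 0, with a median of 0.50 with all mice and 0.61 with the 44, where the median of all genes was 0.03. Cd163 was 8.53, 9.39, 9.04, 8.98 and 9.26 after 24 weeks, and 8.67, 8.19, 8.65, 8.09 and 7.82 after 2 weeks, so that 4 of the 5 mice of 24 weeks lay above every mouse of 2 weeks. It rose by 0.76 (0.33 to 1.19, adjusted p = 0.042) in the 44 mice, as 1 of 9 members, while 2.71% of all genes passed. With all mice it differed by 0.50 (adjusted p = 0.33), none of the 9 passed and 0.219% of all genes did. The mouse with high Glycam1 was at 8.54 after 24 weeks and at 9.32 after 2 weeks of air.

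The Cd163 call rested on few mice. When 1 more mouse of either group was left out of the 44, it passed in 4 of 10 fits, with differences of 0.65 to 0.89 and adjusted p of 0.019 to 0.16. It passed without replicates 1 or 4 of 2 weeks of air or replicates 1 or 3 of 24 weeks of air, and was lost without each of the others. Csf1r (0.81, 0.29 to 1.32) and Cd14 (0.61, 0.23 to 0.99) lay just short of the threshold, with adjusted p of 0.066 and 0.064, and in both genes all 5 mice of 24 weeks lay above all 5 of 2 weeks. C1qa (0.88) had groups that did not overlap as well, with an adjusted p of 0.11, which makes 3 of 9 members beside 4.49% of all genes. Gpr34 was the exception at 0.07 (-0.35 to 0.50).

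The 24-week count depended on mice outside the comparison, because 1 model estimates each gene's spread from all groups. Without replicate 1 of 12 weeks of air and replicate 3 of cessation FA, chosen after their high levels of these same genes were seen, the differences stayed as they were and the spread was smaller. Then 5 of 9 passed, Csf1r, Cd163, C1qa, C1qb and Cd14, with adjusted p of 0.024, 0.025, 0.041, 0.04 and 0.014, and 4.06% of all genes passed.

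After 12 weeks against 2 weeks of air, 9 of 9 were above 0 as well. The median was 0.40 with all mice and 0.67 with the 44, and the median of all genes was 0.00 and 0.01. None passed, with a lowest adjusted p of 0.13 (Csf1r, 0.70, 0.21 to 1.19) in the 44 mice, where 0.907% of all genes passed, and of 0.85 with all mice, where 0.0081% did. All 9 had an unadjusted p under 0.05 in the 44 mice, as did 15.3% of all genes, and with all mice none of the 9 and 6.19% of all genes had one. The 9 genes move together and are not 9 separate pieces of evidence. Without both mice of high member levels, of which only that of the 12-week air group is in this comparison, the median was 0.51. In that fit 7 of 9 had such a p, as did 13.3% of all genes. Both comparisons share the 2-week air mice. Before them, 2 weeks of air against untreated mice gave 0 of 9 past the test (0.518% of all genes with all mice and 1.91% with the 44) and a median of 0.06 in the 44 mice.

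Further macrophage genes were counted in the comparison of longer with shorter sham exposure. After 24 weeks against 2 weeks of air, 4 of 20 rose in the 44 mice and 19 of 20 were above 0, with a median of 0.54. The 4 were Cd209f (0.85 ± 0.23, SE, adjusted p = 0.035), Clec10a (1.05 ± 0.29, adjusted p = 0.039), Mertk (0.37 ± 0.11, adjusted p = 0.044) and Stab1 (0.66 ± 0.19, adjusted p = 0.046); Cd209f and Clec10a encode lectin receptors of tissue macrophages. Stab1 and Mertk, which rose here, were the same 2 genes that fell in cessation RA, and both comparisons use the 24-week air mice. Cebpb (0.49 ± 0.13, adjusted p = 0.029) rose among 10 CSF1 signalling genes, and all 10 were above 0. Of 18 phagocyte genes Lpl, lipoprotein lipase, which fat and muscle also express, rose by 0.24 ± 0.06 (adjusted p = 0.024). Irak3, a brake on receptor signalling by bacterial products, rose among the 9 lipopolysaccharide genes (0.41 ± 0.11, adjusted p = 0.034). Cd55, which rose with 24 weeks of smoke against the same 24-week air mice, fell here among 11 complement genes (-0.32 ± 0.09, adjusted p = 0.044). With all mice none of these passed.

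Of 5 tested mast cell markers, 2 rose beside them in the 44 mice, Tpsb2 by 0.82 ± 0.19 (SE, adjusted p = 0.019) and Cma1 by 1.26 ± 0.35 (adjusted p = 0.041). Adipocyte genes had a median of 0.54, with sums of 10673 to 32478 after 24 weeks and 10907 to 18404 after 2 weeks of air, and 0 of 6 passed. Lymphocyte sums were 205 to 252 after 24 weeks and 178 to 246 after 2 weeks. Whether these cells had a part in the macrophage differences was not tested.

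Within groups the 9 tested genes varied together from mouse to mouse. Levels of the 44 mice were centred on the mean of their group, which left the spread between animals treated alike. All 36 pairs of genes had a Pearson r above 0, with a median of 0.64. The highest r was 0.88, for Mrc1 with Lyz2, and the lowest was 0.35, for Cd68 with Cd163. By permutation with 100000 resamples, two-sided, all 36 had a Benjamini-Hochberg adjusted p under 0.05 over the 36 pairs, and 33 did by Spearman's rho; 1e-05 is the smallest p these permutations can give. Leaving out the 2 mice farthest from the median of the first gene of each pair gave r between 0.25 and 0.81. Lyz2 followed the mean of the other members most closely (r = 0.93), then C1qb (0.88) and Mrc1 (0.86). Gpr34 followed it least (0.60), below Cd68 (0.68). All values of a mouse come from 1 array, so array quality and the piece of tissue taken are shared by both genes of a pair.

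**Figure D5:**
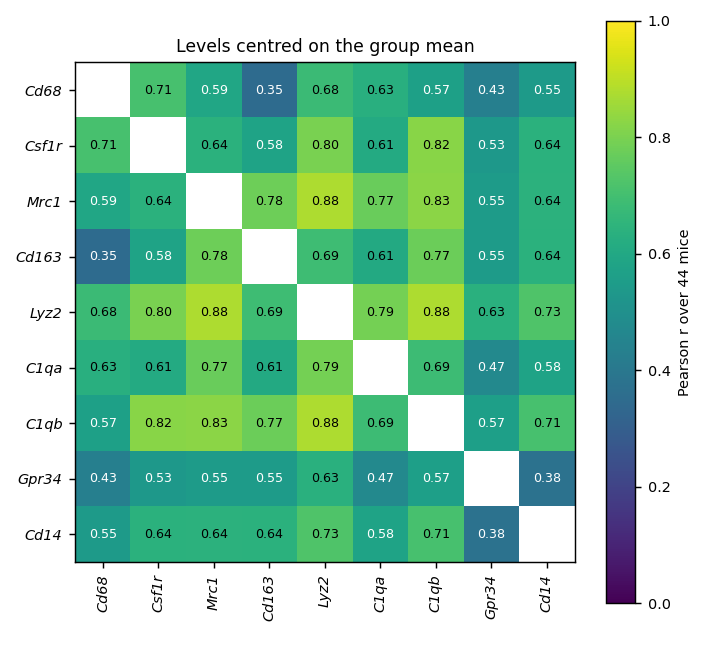
Pearson r between each pair of the 9 tested genes over 44 mice, after centring each gene on its group mean; colour and number give r. The block of Mrc1, Lyz2 and C1qb holds values of 0.83 to 0.88, and the Gpr34 row ends at 0.63.

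The genes most like the members, as a description, were those of highest r with the members' mean over the same 44 mice. Adgre1, which encodes the macrophage marker F4/80, came first (r = 0.95). Fcgr3, an antibody receptor, followed at 0.94, Tyrobp, the adaptor DAP12, at 0.94 and Laptm5, a lysosomal membrane protein of blood cells, at 0.93. The next were Clec4a3, a myeloid lectin (0.92), Ccl9, a chemokine (0.92), Fcer1g, the signalling chain shared by antibody receptors (0.92), C1qc, the remaining chain of C1q (0.92), Ctss, a lysosomal protease (0.91), and Pld4, a lysosomal nuclease (0.91). Over all 12342 non-member genes the median r was 0.03 and the 95th percentile 0.54, and 14 genes were above 0.9. Among the other macrophage genes r ran from Adgre1 down to 0.02 for Maf, with Folr2 at 0.78, Lyve1 at 0.46 and Mertk at 0.35. Of the monocyte markers Ccr2 was at 0.87 and Plac8 at 0.56. Of the dendritic cell markers Cd74 was at 0.88 and Zbtb46 at 0.17. A high r was thus not particular to genes of resident macrophages.

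A pair of mice without high Glycam1 stood high in most of the genes. Replicate 1 of 12 weeks of air had the highest Cd68 and Csf1r of the 44, at intensities of 849 and 2352, while the other 5 mice of its group had 254 to 327 and 722 to 1462. Its Lyz2 was 5164, the others' 1468 to 2104. Replicate 3 of cessation FA had the highest C1qa, C1qb, Cd163, Lyz2, Mrc1, Cd14 and Ccl2 of the 44; its C1qb was 6294, and the other 4 mice of its group without high Glycam1 had 1666 to 2074. Gpr34 was 73.7 in both mice, beside 30.7 to 53.1 in the rest of the 12-week air group and 31.0 to 57.2 in the rest of cessation FA.

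Ccl2 and Ccr2, genes of monocyte recruitment, were high in both animals. Ccl2 was 217 in the air mouse, against 9.15 to 46.6 in its group, and 724 in the FA mouse, against 28.5 to 63.4. Ccr2, the receptor for Ccl2 on monocytes, was 777 in the air mouse, against 102 to 262, and 1141 in the FA mouse, against 118 to 168.8. Ccl12, a further monocyte chemokine, was 624.9 in the FA mouse, while the highest of the others in its group was at 68.1, and 40.02 in the air mouse, just above the 15.8 to 35.2 of its group. The neutrophil gene S100a8 was inside the range of the others, at 173 in the air mouse (122 to 489 in its group) and 94.4 in the FA mouse (43.1 to 139). S100a9, also of neutrophils, was 96.72 in the air mouse (46.56 to 546.9). In the FA mouse S100a9 was 29.01, below the 38.01 to 91.22 of its group. Genes other than those of monocyte recruitment were high in both mice too. Cd74 was 3290 in the air mouse (1218 to 1951) and 7252 in the FA mouse (1219 to 2018). Adgre1 was 602 in the air mouse (113 to 244.8) and 963.4 in the FA mouse (139.4 to 208.5). Cd3e of T cells was 255 in the FA mouse, above 10.0 to 67.5 in its group, and 14.98 in the air mouse, inside 9.47 to 34.1. These mice and genes were chosen after the values were seen.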

How the data were processed

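RNA of mouse gastrocnemius was amplified, labelled with biotin and hybridised to 1-colour expression arrays, per the labels' protocols. The authors deposited 1 intensity per probe set on a linear scale; the step that turned probes into these values, and any scaling in it, has no description in the sources used here. Values ran from -20 to 15890 and array medians from 62.5 to 77.5. Precision is limited by how many arrays there are. Values were floored at -15 (5 of 2522072 moved), 16 was added and log2 taken, with no further scaling.

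Of 45037 probe sets, 34945 had 1 gene symbol and were used, 932 had several and 9160 none. The probe set of highest mean stood for each of 18193 genes, and 12351 genes above the 40th percentile of probe sets (5.71) were tested. Members with several probe sets were Csf1r and C1qb. In limma, 1 model of 9 groups gave 14 comparisons, with 46 residual degrees of freedom for all 55 mice and 35 for the 44 without arrays above 2000 of Glycam1, and with Benjamini-Hochberg adjustment over all genes tested. Adjusted p come from this model in limma, or from its refit under the alternative named beside them; those of the correlations are adjusted over the 36 pairs. Replicates are separate mice, numbered in accession order. Members and lists were chosen with earlier results of these data known. Named were the 10 members, the 2 genes of lowest p per list and comparison and the 10 genes most like the members; Mertk and Stab1 after 24 weeks of air were chosen after their values were seen. The fits were tested on simulated data. Alternatives were the filter, pseudocounts of 1 and 64, quantile normalization, the mean of probe sets, robust moderation with trend, array weights, the compared groups alone, either G8 array, arrays outside the main run of identifiers left out, the title number or lymphocyte mean as covariate, an adjusted p under 0.1, and each mouse left out. After the data were seen, fits without both the high-Glycam1 arrays and 1 more mouse or the 2 mice of highest levels were added. R 4.3.3, limma 3.58.1, data.table (1.17.8), Python 3.11.15, numpy 2.4.6, scipy 1.17.1, pandas 2.3.3 and matplotlib 3.10.9 were used.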

Additional observations from a re-analysis of the deposited data

Results flagged for a closer look

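In 11 of 90 sets of 1 gene in 1 group, a single mouse stood apart from its group by Dixon's ratio of gap to range; chance gives about 1 in 20. Of these, 5 were mice with high Glycam1. Replicate 3 of 2 weeks of air stood high for Lyz2 (12.22), Gpr34 (6.90) and Cd14 (7.96). Replicate 5 of 12 weeks of smoke stood high for Cd14 (8.26) and replicate 6 of 24 weeks of smoke for Ccl2 (7.87).

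The other 6 came from mice without high Glycam1. Replicate 1 of 12 weeks of air stood high for Cd68 (9.76), Lyz2 (12.34) and Cd14 (7.56). Replicate 3 of cessation FA stood high for Cd163 (9.81) and Ccl2 (9.53), and replicate 6 of 2 weeks of smoke for Gpr34 (5.86). All 11 values lay on the high side of their group.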

How the results depend on the processing

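Of 596 counts of members past the test under an alternative, 567 kept the count of the fit with all mice and 29 did not. Most of those kept were counts of 0 that stayed 0. Only cessation RA against 24 weeks of air had a member past the test with all mice. Its count moved in 9 of 12 fits without 1 mouse, in 2 of 8 such fits without the lymph node arrays and in 5 of 16 others. For cessation RA against 24 weeks of air the count of 1 became 0 with no filter, with the second G8 array only and with the title number as covariate (Gpr34 adjusted p of 0.058, 0.06 and 0.051), and 2 with the lymphocyte mean as covariate or without the lymph node arrays and both mice of highest levels; without 1 mouse it was 0 to 1. For cessation RA against 24 weeks of smoke the count of 0 became 1 without the lymph node arrays, with or without those 2 mice, with the lymphocyte mean and with array weights; without the lymph node arrays and 1 mouse it was 0 to 1. For 24 against 2 weeks of air the count of 0 became 1 without the lymph node arrays, 2 with array weights and 5 without those 2 mice too; without the lymph node arrays and 1 mouse it was 0 to 2. The other comparisons kept 0 members under each alternative run. Of 126 differences, 50 changed sign without the lymph node arrays and 44 without these and the 2 mice of highest levels. With the lymphocyte mean as covariate 42 did, with array weights 40 and with the first G8 array only 11. Quantile normalization changed 1, and none of the differences that changed sign had passed. The Gpr34 difference between cessation RA and 24 weeks of air was 1.59 with a pseudocount of 1 and 0.75 with 64, beside 1.24. All 90 group levels moved by under 1 SD without the lymph node arrays. That SD includes the spread those arrays add, and 2 weeks of smoke and 12 weeks of air held no such array, so their levels could not move. The count therefore does not show stable levels. Csf1r in cessation RA, for example, moved from 10.49 (SD 0.70) to 9.86 (SD 0.05). Under both alternatives run, 35 to 36 of 36 correlations passed. The cause of each change was not tested.

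Counts over all genes moved more. With all mice, and then at the lowest and highest alternative, they were 58 (0 with the compared groups alone, 809 at adjusted p 0.1) for 24 weeks of smoke against air and 1 (0 to 2) at 12 weeks. They were 217 (175 to 905) for RA and 10 (0 to 55) for FA against air, and 289 (4 to 753) for RA and 438 (6 to 1515) for FA against 24 weeks of smoke. RA against FA gave 3 (2 to 32), FA against 12 weeks of smoke 42 (15 to 440), 2 weeks of air against untreated 64 (57 to 663), 12 against 2 weeks of air 1 (1 to 241) and 24 against 2 weeks 27 (9 to 981). The smoke mean gave 4 (4 to 61) and the 24-week minus 2-week response 4 (0 to 736). No paired analysis was possible because replicate numbers follow accession order and pair no mice.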
